A study of Mus musculus with 9 samples.

Results

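The lysosome and acid hydrolase genes described here were 32 genes chosen by symbol: 7 membrane proteins, 6 proteases with their partner, 8 enzymes that cut sugars and lipids, 2 cofactor or chaperone proteins, 5 subunits of the proton pump, 3 transcription factors and 1 autophagy receptor. All 32 were among the 24421 genes of the deposited count table, and all 32 passed the filter on low counts that 13901 genes passed. RNA was sequenced from 9 tumors, 5 after treatment of the host with R-propranolol (6 mg/kg/day) and 4 after treatment with vehicle (ethanol in DPBS), with 1 library per tumor. All 9 tumors were grown under the skin of the right flank of male Nu/Nu nude mice, which lack T cells, from bEnd.3, a line of mouse endothelial cells transformed by polyoma middle T antigen. The injections were intraperitoneal. No source used here gives the ages of the mice. Tumor tissue holds the cells of the host beside those of the line.

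Lysosomes are acidic organelles in which hydrolases break down proteins, glycans and lipids delivered by endocytosis and autophagy. A proton pump, the V-ATPase, keeps them acidic, and a dense coat of membrane glycoproteins lines them. Propranolol is a cationic amphiphilic drug, a weak base that crosses membranes and is trapped in acidic compartments, and drugs of this class can cause phospholipids to build up in lysosomes. R-propranolol is the stereoisomer with little activity at beta-adrenergic receptors. TFEB, TFE3 and MITF are related transcription factors that switch on many lysosome genes together when lysosomes are stressed, which makes the RNA of these genes a usual readout of a lysosomal response. The comparison asked whether that RNA differed in tumors of mice given the drug.

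The libraries held 21084749 to 27852630 counts in genes in R-propranolol tumors and 20599904 to 24949010 in vehicle tumors. R-propranolol replicate 5 stood apart: its skeletal muscle markers summed to 154378 CPM (counts per 1000000 in a library, after scaling by the TMM method). Vehicle replicates 1 and 3 had sums of 362 and 367 CPM of these markers, and the remaining tumors 5.10 to 11.5 CPM. Adipocyte markers summed to 5264 CPM in R-propranolol replicate 5, against 124 to 447 CPM in the others. R-propranolol replicate 2 had the highest sum of fibroblast markers, at 31300 CPM, followed by replicate 5 at 16124 CPM, and the other 7 tumors lay between 5226 and 8500 CPM. Hepatocyte markers summed to 19.96 to 91.8 CPM in R-propranolol tumors and 0.794 to 34.7 CPM in vehicle tumors, and 3 of these 7 markers were higher at an unadjusted p under 0.05. Neutrophil markers summed to 13.2 to 213 CPM in R-propranolol tumors and 44.997 to 115 CPM in vehicle tumors, and keratinocyte markers to 0.141 to 7.65 CPM in R-propranolol tumors and 0.332 to 16.8 CPM in vehicle tumors. TMM scaling took the library of replicate 5 as smaller than its total counts, which raises its CPM. Its high and low places below are given after that scaling. The part of other cell types in the results was not tested, and values without replicate 5 are given beside those with it.

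No lysosome gene differed between R-propranolol and vehicle tumors beyond the spread between tumors. By edgeR's quasi-likelihood test with Benjamini-Hochberg adjustment, 0 of the 32 genes had an adjusted p under 0.05, as had 0 of the 13901 genes tested (a share of 0%), where the smallest adjusted p was 0.876. DESeq2 and limma-voom called 0 genes as well. At an unadjusted p under 0.05, edgeR gave 0 of the 32 lysosome genes, against 2.3% of all genes, with DESeq2 also at 0 and limma-voom with quality weights at 1. The mean was higher in R-propranolol tumors for 18 of the 32 genes, against 54.3% of all genes, and the median log2 fold change was 0.02, against 0.03 over all genes. This split depended on the scaling and the tool: 9 means were higher with library size alone, where the median over all genes was -0.10, and 9 with limma-voom and quality weights. The values of the 2 groups overlapped for each of the 32 genes, while 1.26% of all genes had groups that did not overlap. In bulk tissue, fewer cells of a type and less RNA per cell cannot be told apart.

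The size of the differences that these tumors leave room for was limited. The 95% interval of the fold change lay within 2-fold either way for 27 of the 32 genes, against 61.2% of all genes, and the median standard error of the log2 fold change was 0.19 for the lysosome genes and 0.25 over all genes. The 5 exceptions were Cd63, Gpnmb, Gla, Atp6v0d2 and Tfeb. Without R-propranolol replicate 5, the interval lay within 2-fold for 31 of the 32 genes, against 80.3% of all genes, and the exception was Atp6v0d2. The same fit gave 0 lysosome genes at an unadjusted p under 0.05, against 3.78% of all genes, and 0 genes at an adjusted p under 0.05.

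**Figure D1:**
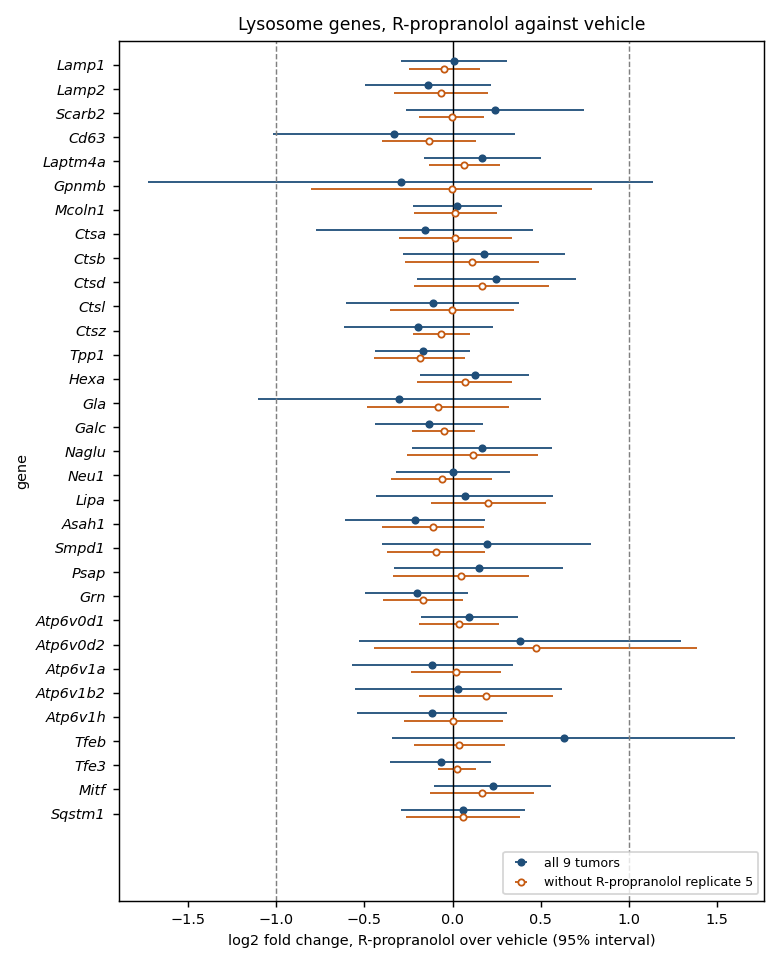
Log2 fold change of each lysosome gene, R-propranolol over vehicle (horizontal axis), with its 95% interval, from all 9 tumors (filled points) and without R-propranolol replicate 5 (open points); dashed lines mark 2-fold either way. Every interval includes 0, and the intervals of Gpnmb and Tfeb are far narrower without that tumor.

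Among the membrane proteins, Lamp1 and Lamp2 encode the 2 most abundant glycoproteins of the lysosomal coat. Lamp1 had 794, 758, 866, 720 and 934 CPM in R-propranolol tumors, against 741, 855, 771 and 871 CPM in vehicle tumors. The groups lay across each other, with the highest and the lowest tumor both in the R-propranolol group. Replicate 5 was the highest only after TMM scaling. The log2 fold change of Lamp1 was 0.01 with a 95% interval of -0.29 to 0.31, and -0.14 with library size alone. Lamp2 averaged 530 ± 76.0 CPM in R-propranolol tumors and 584 ± 83.5 CPM in vehicle tumors (SD, n = 5 and 4), a log2 difference of -0.14 (SE 0.16).

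Cd63, a tetraspanin of late endosomes and exosomes, had 1297, 1117, 1452, 1318 and 468 CPM in R-propranolol tumors, against 1209, 1371, 1539 and 1569 CPM in vehicle tumors. Replicate 5 alone lay far below the rest, at 0.348 times their median. The log2 fold change was -0.33 (95% interval -1.02 to 0.36) and, without replicate 5, -0.13 (-0.40 to 0.13). Scarb2, the membrane protein that carries glucocerebrosidase to lysosomes, had 72.3, 90.0, 78.4, 73.2 and 151 CPM in R-propranolol tumors, against 71.6, 81.0, 79.3 and 82.4 CPM in vehicle tumors. Here replicate 5 was the high tumor, and the fitted log2 difference was 0.24 (SE 0.22) with it and -0.00 (SE 0.08) without it. Laptm4a, a small membrane protein of late endosomes and lysosomes, averaged 441 ± 78.2 CPM in R-propranolol tumors and 392 ± 20.5 CPM in vehicle tumors, and Mcoln1, the calcium channel through which lysosomes signal to TFEB, averaged 44.9 ± 5.17 CPM in R-propranolol tumors and 44.1 ± 3.33 CPM in vehicle tumors (SD, n = 5 and 4).

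Gpnmb, a glycoprotein of macrophages and pigment cells whose RNA is known to increase in lipid-loaded lysosomal disease, varied most. It had 251, 119, 354, 251 and 21.8 CPM in R-propranolol tumors, against 188, 293, 157 and 339 CPM in vehicle tumors. Replicate 5 held 0.087 times the median of the other tumors and replicate 2 held 0.475 times it, and the remaining R-propranolol tumors lay within or just above the vehicle range. The log2 fold change was -0.29 (95% interval -1.73 to 1.14) and, without replicate 5, -0.00 (-0.80 to 0.79).

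Of the proteases, Ctsd and Ctsb had their highest values in the same tumors. Ctsd, the main aspartic protease of lysosomes, had 714, 1230, 832, 724 and 1121 CPM in R-propranolol tumors, against 748, 837, 744 and 783 CPM in vehicle tumors. Replicates 2 and 5 lay above every vehicle tumor and the other R-propranolol tumors lay among or below them. Its log2 fold change was 0.25 (SE 0.20), with an exact permutation p of 0.373 (two-sided, over the 126 splits of the tumors, smallest possible p 0.00794). Ctsb, a cysteine protease, had 1406, 2264, 1459, 1349 and 1994 CPM in R-propranolol tumors, against 1422, 1557, 1615 and 1390 CPM in vehicle tumors. Ctsb too was high in replicates 2 and 5 alone, with a log2 difference of 0.18 (SE 0.20). Without replicate 5 the log2 differences were 0.17 (SE 0.17) for Ctsd and 0.11 (SE 0.17) for Ctsb.

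Ctsl, another cysteine protease, was highest in R-propranolol replicate 2 (1175 CPM) and lowest in replicate 5 (564 CPM), on either side of the vehicle range of 852 to 968 CPM. Ctsa, the carboxypeptidase that protects NEU1 and beta-galactosidase in a complex, ranged from 272 to 782 CPM in R-propranolol tumors and from 542 to 707 CPM in vehicle tumors, with replicate 5 the low tumor. Ctsz, a cysteine carboxypeptidase, ranged from 265 to 515 CPM in R-propranolol tumors and from 458 to 515 CPM in vehicle tumors, again with replicate 5 lowest. Over the other 8 tumors the highest Ctsz value was only 1.13 times the lowest. The log2 differences of Ctsl, Ctsa and Ctsz were -0.11, -0.16 and -0.19, and without replicate 5 they were -0.00, 0.02 and -0.06. Tpp1, a tripeptidyl peptidase, had 140, 125, 154, 133 and 145 CPM in R-propranolol tumors, against 144, 181, 132 and 171 CPM in vehicle tumors. Its log2 difference was -0.17 (SE 0.12) with replicate 5 and -0.19 (SE 0.11) without it, the lowest of the 32 genes without that tumor.

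Counting without known strand limits some of these values. The exons of 10 lysosome genes overlap those of genes transcribed from the opposite strand, among them 1742 of the 6489 exon bases of Ctsl, 819 of 4715 for Ctsa, 774 of 6051 for Ctsb and 580 of 3356 for Sqstm1. Ctsd and Ctsl also share exon bases with a gene on their own strand, 808 and 395 bases, and reads there cannot be assigned to either gene.

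The 8 enzymes that cut glycans and lipids fell on both sides of 0, with 5 means higher in R-propranolol tumors and 3 lower. Without replicate 5, 3 of these 8 means were higher, against 53.7% of all genes. Smpd1 encodes acid sphingomyelinase, an enzyme that cationic amphiphilic drugs are known to detach from the inner membrane and thereby inhibit at the protein level. Smpd1 had 44.7, 37.7, 53.3, 43.1 and 93.8 CPM in R-propranolol tumors, against 42.1, 51.8, 44.1 and 52.7 CPM in vehicle tumors. Replicate 5 was 2.11 times the median of the others. The log2 difference was 0.19 (SE 0.26) with replicate 5 and -0.09 (SE 0.12) without it.

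Gla, the alpha-galactosidase that is missing in Fabry disease, had 81.1, 65.7, 101, 73.2 and 23.5 CPM in R-propranolol tumors, against 62.2, 87.0, 86.3 and 104 CPM in vehicle tumors. Replicate 5 again stood alone, at 0.280 times the median of the others. The log2 difference was -0.30 (SE 0.35) with that tumor and -0.08 (SE 0.18) without it. Asah1, acid ceramidase, ranged from 84.8 to 161 CPM in R-propranolol tumors and from 125 to 158 CPM in vehicle tumors. Lipa, which frees cholesterol and fatty acids from lipoproteins, ranged from 60.2 CPM in replicate 5 to 142 CPM in replicate 2 among R-propranolol tumors and from 80.9 to 108 CPM in vehicle tumors. The log2 differences were -0.21 for Asah1 and 0.07 for Lipa, and -0.11 and 0.20 without replicate 5.

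The remaining hydrolases differed little. Hexa, the alpha subunit of beta-hexosaminidase, averaged 185 ± 28.8 CPM in R-propranolol tumors and 170 ± 15.6 CPM in vehicle tumors (SD, n = 5 and 4). Naglu, which degrades heparan sulfate, averaged 28.0 ± 5.52 CPM in R-propranolol tumors and 24.9 ± 3.09 CPM in vehicle tumors, and Neu1, a sialidase, 43.8 ± 7.26 CPM in R-propranolol tumors and 43.7 ± 3.51 CPM in vehicle tumors. Galc, the galactosylceramidase that is missing in Krabbe disease, averaged 34.4 ± 5.06 CPM in R-propranolol tumors and 37.7 ± 3.18 CPM in vehicle tumors. None of these 4 differences exceeded 0.17 on the log2 scale.

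Psap, the precursor of the saposins that present lipids to hydrolases, was the most abundant lysosome gene per length of exon. It reached 536 ± 134 CPM per kilobase of exon in R-propranolol tumors and 484 ± 58.7 CPM per kilobase in vehicle tumors (SD, n = 5 and 4). In vehicle tumors Cd63, Ctsz, Ctsd and Lamp1 followed, between 303 and 386 CPM per kilobase, and at the low end stood Tfeb, Mitf, Galc and Atp6v0d2, between 1.09 and 4.87 CPM per kilobase. Within the gene, Psap had 1248, 1892, 1229, 1135 and 1852 CPM in R-propranolol tumors, against 1226, 1308, 1561 and 1216 CPM in vehicle tumors. Replicates 2 and 5 were once more the high tumors, and the log2 difference was 0.15 (SE 0.21), and 0.05 (SE 0.17) without replicate 5.

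Grn, the precursor of the granulins, came nearest to the threshold of the 32 genes. It had 504, 550, 461, 444 and 425 CPM in R-propranolol tumors, against 542, 617, 562 and 475 CPM in vehicle tumors. The groups overlapped, with 2 R-propranolol tumors above the lowest vehicle tumor. The log2 fold change was -0.20 (SE 0.13), with an unadjusted p of 0.150 and an adjusted p of 0.876 by edgeR, and the exact permutation p was 0.0873. Without replicate 5 the log2 difference was -0.17 (SE 0.10).

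With all tumors, the proton pump subunits gave no common direction, with 3 means higher in R-propranolol tumors and 2 lower. This split depended on R-propranolol replicate 5. Without it all 5 means were higher, by 0.003 to 0.47 on the log2 scale, against 53.7% of all genes with a higher mean. In that fit 0 of the 5 had an unadjusted p under 0.05 by edgeR. Of the 14 other pump subunits tested, 5 means were higher without replicate 5. Atp6v1a and Atp6v1b2 encode the catalytic and the nucleotide-binding subunit of the cytosolic part, Atp6v1h a regulatory subunit, and Atp6v0d1 the subunit that joins the membrane part to it. Atp6v1a ranged from 118 to 246 CPM in R-propranolol tumors and from 191 to 234 CPM in vehicle tumors, Atp6v1b2 from 162 to 452 CPM in R-propranolol tumors and from 249 to 348 CPM in vehicle tumors, and Atp6v1h from 68.5 to 138 CPM in R-propranolol tumors and from 99.2 to 128 CPM in vehicle tumors. For all 3 the lowest R-propranolol tumor was replicate 5 and the highest was replicate 3. The log2 differences of Atp6v1a, Atp6v1b2 and Atp6v1h were -0.11, 0.03 and -0.12, and without replicate 5 they were 0.02, 0.19 and 0.003. Atp6v0d1 averaged 76.8 ± 10.7 CPM in R-propranolol tumors and 71.9 ± 5.70 CPM in vehicle tumors (SD, n = 5 and 4).

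Atp6v0d2, the tissue-restricted counterpart of Atp6v0d1 known from osteoclasts, was scarce. It had 68, 149, 170, 49 and 42 counts in R-propranolol tumors, against 56, 82, 98 and 50 counts in vehicle tumors, which came to 2.40, 5.96, 6.11, 2.01 and 2.79 CPM against 2.41, 3.16, 3.89 and 2.37 CPM. Replicates 2 and 3 were above every vehicle tumor and the other R-propranolol tumors were not. The log2 fold change was 0.38 (95% interval -0.53 to 1.30). Osteoclast markers summed to 70.3 to 217 CPM in R-propranolol tumors and 94.4 to 191 CPM in vehicle tumors, mostly Mmp9 outside replicate 5, with Acp5 at 3.59 to 70.8 CPM in R-propranolol tumors and 4.27 to 10.9 CPM in vehicle tumors and the other 4 markers at 2.28 CPM or less in every tumor. Of the 6 markers, 1 was lower at an unadjusted p under 0.05 by edgeR: Ocstamp had 0.719 to 1.48 CPM in R-propranolol tumors and 1.62 to 2.28 CPM in vehicle tumors (adjusted p 0.876).

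**Figure D2:**
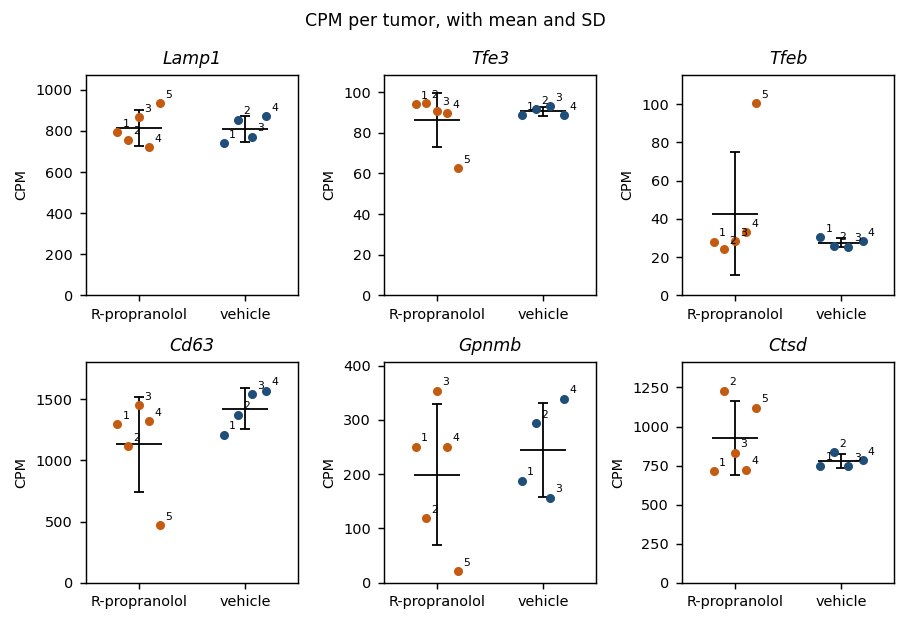
CPM of 6 lysosome genes (vertical axes, each from 0) in each tumor, numbered by replicate, with R-propranolol tumors left of vehicle tumors; horizontal lines are means and bars are SD (n = 5 and 4). R-propranolol replicate 5 lies apart for Tfe3 (62.6 CPM), Tfeb (100.4 CPM), Cd63 (468 CPM) and Gpnmb (21.8 CPM), and replicates 2 and 5 are the high tumors for Ctsd.

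Among the transcription factors, the value of Tfeb depended on 1 tumor. TFEB and TFE3 are held in the cytosol by mTORC1 and move to the nucleus when it is inactive, so their RNA level is not a measure of their activity. Tfeb had 28.2, 24.1, 28.2, 33.1 and 100 CPM in R-propranolol tumors, against 30.5, 26.01, 25.5 and 28.5 CPM in vehicle tumors. All tumors but replicate 5 lay between 24.1 and 33.1 CPM. Tfeb had the highest log2 fold change of the 32 genes, 0.63 (95% interval -0.34 to 1.60), and it was 0.04 (-0.22 to 0.30) without that tumor.

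Tfe3 was the steadiest of the 32 genes outside replicate 5. It had 93.9, 94.5, 90.9, 89.6 and 62.6 CPM in R-propranolol tumors, against 88.6, 91.5, 93.1 and 88.6 CPM in vehicle tumors. Over the 8 tumors without replicate 5 the highest value was 1.07 times the lowest, and the log2 difference was 0.03 (95% interval -0.08 to 0.13). Mitf, which also directs pigment cell and osteoclast genes, had 21.6, 23.4, 28.3, 25.4 and 29.6 CPM in R-propranolol tumors, against 23.5, 24.2, 17.5 and 22.5 CPM in vehicle tumors. Of the R-propranolol tumors 3 lay above all vehicle tumors, and the log2 difference was 0.23 (SE 0.15) with an exact permutation p of 0.151. Melanocyte markers were nearly absent, with sums of at most 0.931 CPM in R-propranolol tumors and 1.08 CPM in vehicle tumors, and Tyr was at 0 counts in all 9 tumors, which allows up to 0.106 to 0.199 CPM depending on the tumor. Sqstm1, the autophagy receptor p62 and a known TFEB target, had 646, 599, 811, 603 and 661 CPM in R-propranolol tumors, against 536, 665, 583 and 764 CPM in vehicle tumors, a log2 difference of 0.06 (SE 0.16).

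The promoters of several of these genes carry the letters that this family of factors binds. TFEB, TFE3 and MITF recognise the E-box CACGTG, and its extended forms in lysosome promoters are known as the CLEAR element. RefSeq promoter windows (GRCm38.p6), from 250 bases before a start to 50 bases after it, were available for 27 of the 32 genes. In these windows CACGTG was found in 9 genes (33.3%), against 8.09% of the 27025 genes with a window. CACGTG reads the same on both strands, so 1 search covered both. TCACGTGA, which contains it, was found in 6 genes (22.2%), against 1.12% of all genes. The longer form searched as the CLEAR element, TCACGTGA with a further fixed base on each side, was found in 0 of the 27 genes, against 0.37% of all genes. The 5 genes not searched were Ctsb, Asah1, Atp6v0d2, Atp6v1b2 and Atp6v1h.

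Stretches from 4 of these promoters are shown because they carry the motif of this family of factors. They show the most crowded case, a flanked pair, and single boxes far from and at the RefSeq start. They are written 5′ to 3′ on the strand of the gene, with each CACGTG in capitals. Lamp1 (chr8:13159085-13159166, plus strand) has 4 boxes whose first bases lie from -61 to -15 relative to its start, Gla (chrX:134601179-134601247, minus strand) has a pair, each as TCACGTGA, that begin at -227 and -194, Ctsd (chr7:142388052-142388077, minus strand) has 1 that begins at -245 and another, not shown, at -98, and Atp6v0d1 (chr8:105566047-105566082, minus strand) has 1 that begins at -3. Negative positions lie before the RefSeq start, and GENCODE can place a start elsewhere. Its Ctsd gene begins further upstream, at chr7:142388038, so the box at -98 lies within that gene.
Lamp1: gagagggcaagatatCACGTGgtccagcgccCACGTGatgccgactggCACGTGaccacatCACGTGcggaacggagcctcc
Gla: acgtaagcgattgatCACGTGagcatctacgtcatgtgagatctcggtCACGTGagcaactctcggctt
Ctsd: tccccCACGTGacctgtatccagtca
Atp6v0d1: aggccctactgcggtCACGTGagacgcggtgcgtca

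Genes with and without the motif in their windows had similar medians. The 9 genes with CACGTG (Lamp1, Mcoln1, Ctsa, Ctsd, Ctsl, Gla, Naglu, Atp6v0d1 and Atp6v1a) had a median log2 fold change of 0.01, with 5 means higher in R-propranolol tumors, and the 18 searched genes without it had a median of 0.03, with 10 means higher. Without replicate 5 the medians were 0.02 with the motif and -0.00 without it. Lamp1, with 4 boxes, differed by 0.01 on the log2 scale and Gla, with a pair, by -0.30. A match of letters is not evidence that a factor is bound.

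**Figure D3:**
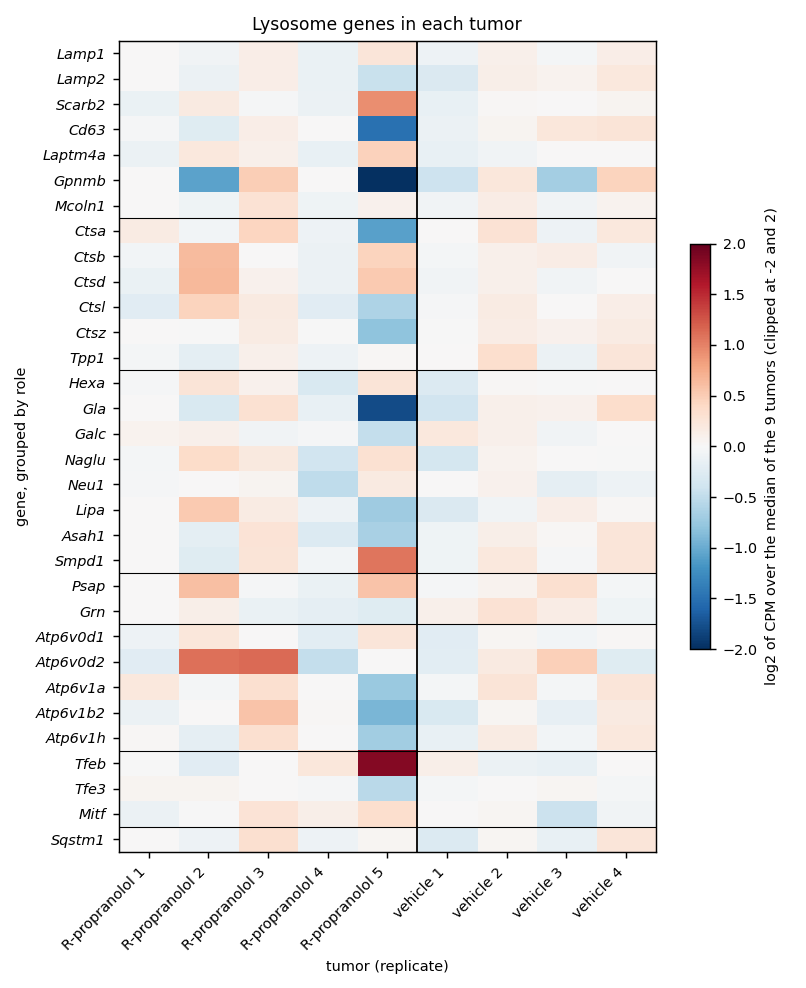
Log2 of the CPM of each lysosome gene over its median across the 9 tumors (colour, clipped at -2 and 2), with genes in rows grouped by role and tumors in columns, R-propranolol left of the vertical line and vehicle right of it. The column of R-propranolol replicate 5 holds the deepest colours in both directions, and replicate 2 holds the deepest for Ctsb, Ctsd and Psap and the next deepest for Gpnmb.

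The variation among tumors was larger than the variation between groups. Of the 32 lysosome genes, 9 had their highest value and 15 their lowest in R-propranolol replicate 5, against 36.5% and 42.1% of all genes. In that tumor 14 lysosome genes lay over 1.5-fold from the median of the others, 3 above (Tfeb, Smpd1 and Scarb2) and 11 below, against 62.6% of all genes. The sample SD was larger in R-propranolol tumors for 28 of the 32 genes, and for 23 when replicate 5 was left out. Over the other 8 tumors the highest value was under 2 times the lowest for 30 genes, and the exceptions were Gpnmb (2.97) and Atp6v0d2 (3.04). The means of the 2 groups lay within 1.5-fold of each other for 31 genes, with Tfeb the exception. The share of all genes was not computed for these SDs, ranges and means. Their counts are therefore not read as particular to lysosome genes.

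R-propranolol replicate 2 differed from the median of the other tumors by over 1.5-fold for 5 of the 32 lysosome genes, against 20.7% of all genes. Ctsd was 1.61, Ctsb 1.57, Psap 1.53 and Atp6v0d2 2.29 times that median, and Gpnmb 0.475 times. The tumors also differed in macrophage markers. The 15 macrophage markers (such as Adgre1, Csf1r and Lyz2) summed to 1605, 3945, 815, 1847 and 4503 CPM in R-propranolol tumors, against 2478, 1877, 2287 and 903 CPM in vehicle tumors. R-propranolol replicate 2 or 5 was highest for 14 of the 15 markers, and R-propranolol replicate 3 or vehicle replicate 4 was the low tumor for all 15. None of the 15 markers passed an unadjusted p under 0.05 between the groups by edgeR.

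Lysosome genes ran both with and against these markers. The 2 highest values lay in R-propranolol replicates 2 and 5 for 8 genes (Scarb2, Laptm4a, Ctsb, Ctsd, Hexa, Naglu, Psap and Atp6v0d1), against 18.9% of all genes. The 2 highest values lay in R-propranolol replicate 3 and vehicle replicate 4, the tumors with the lowest marker sums, for another 8 genes (Lamp2, Gpnmb, Ctsz, Gla, Asah1, Atp6v1b2, Atp6v1h and Sqstm1), against 5.92% of all genes. Gpnmb, Ctsz and Atp6v1h also had their 2 lowest values in R-propranolol replicates 2 and 5, an order found in 2.11% of all genes. From the lowest to the highest marker sum, Gpnmb had 354, 339, 251, 251, 293, 157, 188, 119 and 21.8 CPM. The order was nearly inverse in tumors of both groups. R-propranolol replicates 2 and 5 also had the 2 highest sums of fibroblast and of endothelial markers, so their place is not particular to macrophage markers. The part of macrophages or of other cell types in these values was not tested.

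**Figure D4:**
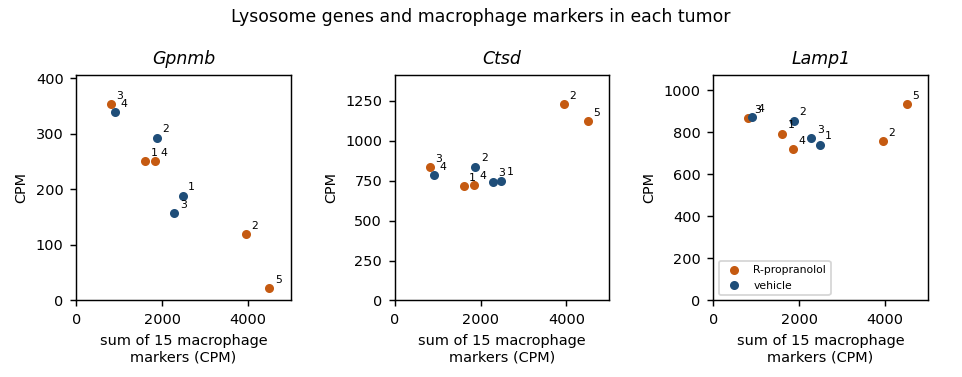
CPM of Gpnmb, Ctsd and Lamp1 (vertical axes) against the summed CPM of 15 macrophage markers (horizontal axes) in each of the 9 tumors, numbered by replicate within R-propranolol and vehicle. Gpnmb lies lowest and Ctsd highest in R-propranolol replicates 2 and 5, whose marker sums are 3945 and 4503 CPM, and Lamp1 lies between 720 and 934 CPM throughout.

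Endothelial markers, which mark the bEnd.3 cells and host vessels alike, were present in every tumor. Their 12 genes summed to 502 to 1032 CPM in R-propranolol tumors and 482 to 619 CPM in vehicle tumors, with replicate 2 highest and replicate 5 next.

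The other genes of the pathway gave a like picture. Of 123 further genes of lysosomal enzymes, membrane proteins, pump subunits, enzyme sorting, mTORC1 docking and autophagy, 117 were tested, and 64 means were higher in R-propranolol tumors. The median over the 117 was 0.02 on the log2 scale. By edgeR 0 of the 117 passed an adjusted p under 0.05, and at an unadjusted p under 0.05 there were 2 higher and 1 lower, against 2.01% and 0.288% of all genes. Without R-propranolol replicate 5 there were 1 higher and 6 lower, against 2.65% and 1.13% of all genes, with 57 means higher of 117 (53.7% of all genes), a median of -0.00 and again 0 at an adjusted p under 0.05. The 1 higher was Tpcn2, a cation channel (0.13, SE 0.06), and the 6 lower were Atp6v0e, Gnptg, Lamtor4, Ppt1, Ppt2 and Tmem192, between -0.25 and -0.13 on the log2 scale, with an adjusted p of 0.9995 by edgeR for each of the 7. Lamtor4, Ppt1, Ppt2, Tmem192 and Tpcn2 were named after their values were seen. With all 9 tumors, the median log2 fold change was 0.04 for 36 other acid hydrolases (21 higher), 0.01 for 20 other membrane proteins (11 higher), -0.11 for 14 other pump subunits (5 higher), -0.01 for 12 genes that sort enzymes to lysosomes (6 higher), -0.01 for 15 genes that dock mTORC1 (7 higher) and 0.05 for 20 autophagy genes (14 higher).

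The 3 genes at an unadjusted p under 0.05 with all 9 tumors were Rragd, Atp6v0e2 and Atp6v0e. Rragd, a GTPase that brings mTORC1 to lysosomes and a TFEB target, had 349 CPM in R-propranolol replicate 5 and 0.369 to 2.68 CPM in the other R-propranolol tumors, against 0.807 to 1.98 CPM in vehicle tumors. Atp6v0e2, a small pump subunit, had 42.9 CPM in replicate 5 and 0.0353 to 3.12 CPM in the other R-propranolol tumors, against 0.0475 to 0.617 CPM in vehicle tumors. Replicate 5, the tumor with the highest sum of muscle markers, was by far the highest for both. Without it the log2 fold change was -0.11 for Rragd and 2.24 (unadjusted edgeR p 0.0832, adjusted p 0.9995) for Atp6v0e2, of which replicates 2 and 4 (3.12 and 0.943 CPM) also lay above every vehicle tumor.

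Atp6v0e, the more abundant counterpart of Atp6v0e2, did not rest on that tumor. It had 101, 96.6, 106, 97.3 and 78.6 CPM in R-propranolol tumors, against 105, 114, 126 and 119 CPM in vehicle tumors. Of the R-propranolol tumors only replicate 3 lay above the lowest vehicle tumor. The log2 fold change was -0.27 (SE 0.11), with an unadjusted p of 0.0309 and an adjusted p of 0.876 by edgeR. The exact permutation p was 0.0238. Without replicate 5 the log2 fold change was -0.21, with an unadjusted p of 0.0129 and an adjusted p of 0.9995 by edgeR. Atp6v0e was named for its small p.

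The genes with the 2 smallest p in the remaining lists had smaller or less even differences. Ctsf and Ctso, a pair of cysteine proteases, averaged 14.9 ± 18.3 and 16.6 ± 10.8 CPM in R-propranolol tumors and 4.91 ± 3.07 and 10.2 ± 1.13 CPM in vehicle tumors (SD, n = 5 and 4), with replicate 5 the highest tumor for both. Map1lc3a, an LC3 gene of autophagosomes, had 233 CPM in replicate 5 and 51.2 to 73.9 CPM in the other R-propranolol tumors, against 51.0 to 72.7 CPM in vehicle tumors, and Wipi1, an autophagy adaptor, averaged 57.9 ± 21.5 CPM in R-propranolol tumors and 43.7 ± 4.27 CPM in vehicle tumors. The log2 differences were 0.29 (SE 0.22) for Tpcn1, a cation channel of endosomes and lysosomes, -0.21 (SE 0.13) for Slc29a3, a nucleoside transporter, 0.19 (SE 0.15) for Flcn, a regulator of the Rag GTPases, and -0.21 (SE 0.16) and -0.16 (SE 0.14) for Gnptab and Gnptg, the subunits of the enzyme that makes the mannose 6-phosphate tag.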

How the data were processed

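Total RNA of frozen tumor tissue was made into libraries with the NEBNext Ultra kit and sequenced in pairs. The authors deposited raw counts per gene symbol, with no normalization. The submitters' processing notes name mm10, STAR and HTSeq. The sources used here give no versions, no annotation and no strand setting. Reads that HTSeq assigned to no gene (13.4% to 15.4%), to several genes (1.81% to 1.98%) or to several places (3.46% to 3.99%, and 7.86% in R-propranolol replicate 5) were left out of library sizes and tests, which lowers genes with near-identical copies.

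The groups came from the treatment label. The lysosome genes, the pathway and marker lists and the tests were chosen with earlier results of these data known. Of the tests, only the edgeR fit was tried on simulated data. All 32 lysosome genes are given, with the 2 genes of smallest p from each of the 6 pathway lists and the summed level of each marker list. Counts were analysed in R 4.3.3 with edgeR 4.0.16: filterByExpr (minimum count 10, minimum total 15), TMM scaling, the quasi-likelihood test and Benjamini-Hochberg adjustment over 13901 genes, with a threshold of 0.05. The 95% intervals come from the same fit. Exact permutation tests compared mean log2 CPM (prior count 0.25), two-sided. Nothing gives the tumors as other than separate animals, but the same number stands in the titles of vehicle replicates 1 and 2. They were taken as separate, and p-values measure the spread between these tumors. Alternatives were DESeq2 1.42.0, limma-voom 3.58.1, other scalings and filters, each tumor left out, those vehicles summed, and a replicate block. Gene places and exon lengths came from GENCODE (GRCm38) and promoter windows from RefSeq (GRCm38.p6).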

Additional observations from a re-analysis of the deposited data

Results flagged for a closer look

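In 6 of the 64 groups checked (32 lysosome genes in R-propranolol and in vehicle tumors), 1 tumor lay far from the others of its group by Dixon's test. Chance gives this in about 1 group in 20, but the groups share the same 9 tumors and are not independent. R-propranolol replicate 5 was the far tumor for 5 genes: it was high for Tfeb (100.4 CPM), Scarb2 (151 CPM) and Smpd1 (93.8 CPM) and low for Ctsz (265 CPM) and Tfe3 (62.6 CPM). Replicate 5 was the highest tumor for 36.5% and the lowest for 42.1% of all genes. The share of all genes flagged by Dixon's test was not computed. This tumor also had the highest sums of skeletal muscle and adipocyte markers, and the part of these in its values was not tested. Vehicle replicate 1 was low for Hexa, at 146 CPM against 176 to 179 CPM in the other vehicle tumors.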

How the results depend on the processing

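Over 18 alternatives, 0 lysosome genes and 0 of all genes passed an adjusted p under 0.05, while the number of all genes at an unadjusted p under 0.05 was 320 by the reported test, 831 with DESeq2, 838 with limma-voom, 626 without a filter, 100 with vehicle replicates 1 and 2 summed, and 103 to 737 with 1 tumor left out. The number of lysosome genes at that p was 0, except for 1 with limma-voom and quality weights (Grn, -0.22) and 0 to 1 with 1 tumor left out, the 1 being Asah1 (-0.32) without R-propranolol replicate 3. The median log2 fold change of the lysosome genes was -0.12 with library size alone, where the median of all genes was -0.10. Without R-propranolol replicates 2 and 5, a setting chosen after seeing the data, it was -0.02. The sign of the log2 fold change held in every setting for 10 lysosome genes and changed in at least 1 for 22. The 10 were Lamp2, Cd63, Ctsl, Ctsz, Tpp1, Galc, Asah1 and Grn, always lower in R-propranolol tumors, and Tfeb and Mitf, always higher. The settings share most of their tumors and no lysosome gene was called in any, so no direction is claimed for a single gene. With the replicate block, the number of lysosome genes at that p was 0 and their median was 0.01. Same-numbered tumors correlated at -0.28, 0.09, -0.64 and 0.53 in their deviations from the group means. The R-propranolol mean held replicate 5, so these correlations cannot decide whether the numbers pair the tumors. The smallest change that 4 and 5 tumors could detect was not computed, so small changes are not excluded for any lysosome gene. The median SE of their log2 fold changes was 0.19 by the reported test. It was larger for variable genes such as Gpnmb (0.63) and Atp6v0d2 (0.40).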
